A study of Mus musculus with 24 samples.

Results

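The 9 genes described here, Upk1b, Upk3b, Msln, Lrrn4, Nkain4, Gpm6a, Cd200, Muc16 and Bnc1, are markers of mesothelium and of the ovarian surface, and they were taken by symbol out of 35695 genes in the expression tables of a mouse ovarian surface epithelium study. Poly(A) RNA from mouse ovarian surface epithelial cells (mOSE) was sequenced in 24 libraries, 3 in each of 8 groups. In the first experiment the groups were TGFB1 spheroids, untreated spheroids, TGFB1 monolayers and untreated monolayers of the cell line m1102. TGFB1 (transforming growth factor beta 1) was used at 10 ng/mL, and cells for TGFB1 spheroids received it for 4 days before they went onto ultra low attachment plates, where cells aggregate. The duration in monolayers is not given in the labels. In the second experiment, m1102 cells carried a lentiviral Snail construct or the empty lentiviral vector WPI. In the third, cells labelled mOSE_BRCA1_fl, taken from mice with floxed Brca1 alleles, had received adenoviral Cre or adenoviral GFP, and both groups therefore started from the same floxed cells. Nothing in the labels says that the 3 libraries of a group came from separate cultures, so every p-value here reflects the spread among libraries of a group, which may be technical.

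The ovarian surface epithelium is a single layer of mesothelial cells that covers the ovary and is continuous with the lining of the peritoneal cavity. Mesothelial cells carry an apical coat of glycoproteins that lets organs slide past each other, and they express uroplakins, mesothelin and membrane mucins together with keratins and the transcription factor Wt1. On exposure to TGFB1, or when epithelial repressors such as Snail are raised, mesothelial cells in culture can lose epithelial features and take on mesenchymal ones.

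Values are scaled TPM (a relative abundance of transcripts, corrected for transcript length, multiplied by a factor per library), as deposited in 1 table per experiment. Levels can be compared between genes of a library and between libraries of a table, but not between tables, which were normalized separately, and the depth of the libraries is unknown. Columns summed to between 955433 and 1166749 in the first experiment, between 983449 and 1021026 in the Snail experiment and between 796668 and 1810667 in the BRCA1 experiment. All 6 monolayer libraries of the first experiment are marked as re-analysed and no spheroid library is, so spheroid culture and library origin cannot be told apart. Untreated monolayers 1 and 2 are both traced by their labels to 1 earlier sample, although their values differ. In these bulk samples, fewer cells of a type and less RNA per cell cannot be told apart.

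Several libraries stood apart from the rest of their groups. TGFB1 monolayer 1 was the extreme library of its group in all 9 genes, highest in Cd200 and lowest in the other 8. TGFB1 spheroid 1 and untreated spheroid 3 differed from the other spheroids in Upk1b, at 22.6 and 19.7 scaled TPM, against 3.87 to 4.40 scaled TPM in the other 4 spheroid libraries. The same 2 libraries were high in Cd52, a leukocyte and reproductive tract surface antigen, at 111 scaled TPM in TGFB1 spheroid 1 and 76.5 scaled TPM in untreated spheroid 3, against at most 20.2 scaled TPM in the other 4. They were also high in Cd200r1, the receptor of Cd200, at 37.4 scaled TPM in TGFB1 spheroid 1 and 26.4 scaled TPM in untreated spheroid 3, against 0.979 to 2.17 scaled TPM in the other 4. Among the GFP libraries of the BRCA1 experiment, the mean Pearson r with the rest of the group, across genes, was 0.948, 0.891 and 0.922, against 0.973 to 0.984 for the Cre libraries.

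The cell type labels were checked against other genes of the tissue. Wt1 averaged 177 ± 11.1 and Krt18 196 ± 7.88 scaled TPM in untreated monolayers (SD, n = 3), whereas Krt8, the usual partner keratin of Krt18, was at 0.508 scaled TPM or less in every m1102 library, and averaged 67.7 ± 11.5 in Cre and 197 ± 79.1 in GFP libraries (SD, n = 3 each). Ptprc, the common leukocyte antigen, was at 0.223 scaled TPM or less in every library. Snai1, which encodes Snail, was at 234, 195 and 193 scaled TPM in Snail libraries and at 13.7, 10.1 and 9.81 scaled TPM in WPI libraries. Brca1 was at 5.34, 11.1 and 4.09 scaled TPM in Cre libraries and at 4.27, 12.3 and 3.66 scaled TPM in GFP libraries, which overlap. Cre removes only the floxed part of the gene, so a gene-level value of this kind does not check those labels.

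All 9 genes passed the filter on low values (at least 1 scaled TPM in at least 3 libraries) in each of the 3 tables. In GRCm38, the genes are Upk1b (chr16:38773184-38800328, minus strand), Upk3b (chr5:136038496-136046487, plus), Msln (chr17:25748613-25754378, minus), Lrrn4 (chr2:132868305-132880891, minus), Nkain4 (chr2:180934772-180954699, minus), Gpm6a (chr8:54954843-55060871, plus), Cd200 (chr16:45382135-45409053, minus), Muc16 (chr9:18495455-18674530, minus) and Bnc1 (chr7:81966672-81992292, minus). Annotated genes on the opposite strand overlap Nkain4 (Gm14341), Muc16 (Gm25295) and Bnc1 (4833418N17Rik), and 5 annotated transcripts on the same strand overlap Gpm6a. Reads of such neighbours may be shared, and values of these 4 genes carry that uncertainty.

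Promoter windows (250 bases before to 50 after the annotated start, RefSeq, GRCm38.p6) were found for 6 of the 9 genes, in 7 windows. They were searched on both strands for GGAATG, the letters bound by TEAD factors, for CAGGTG, the E-box bound by Snail, and for GTCTAGAC, the palindrome bound by SMAD factors downstream of TGFB1. GGAATG was in 4 of the 7 windows, those of Upk3b, Lrrn4 and Cd200 and the first of Gpm6a, and 14.7% of 32851 promoters in the table hold it. CAGGTG was in 1 window, the first of Gpm6a (20.2% of promoters), and GTCTAGAC in none (0.213%). That first window of Gpm6a (chr8:54779184-54779483) lies well upstream of the gene span given above, and its use in these cells was not tested. The second window of Gpm6a (chr8:54954478-54954777), next to that span, held no match. The windows of Upk3b (chr5:136038246-136038545, plus strand), Lrrn4 (chr2:132880813-132881112, minus strand) and Cd200 (chr16:45409004-45409303, minus strand) are shown, since Upk3b and Lrrn4 had among the largest differences with spheroid culture and Cd200 rose in TGFB1 monolayers. Capitals mark GGAATG or its reverse complement CATTCC, and a match is a description of these letters, not of binding.
Upk3b: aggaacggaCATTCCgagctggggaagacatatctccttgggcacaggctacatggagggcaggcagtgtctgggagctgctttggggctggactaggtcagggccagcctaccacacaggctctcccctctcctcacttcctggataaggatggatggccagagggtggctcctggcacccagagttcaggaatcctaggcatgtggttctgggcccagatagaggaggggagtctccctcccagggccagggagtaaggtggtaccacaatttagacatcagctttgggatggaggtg
Lrrn4: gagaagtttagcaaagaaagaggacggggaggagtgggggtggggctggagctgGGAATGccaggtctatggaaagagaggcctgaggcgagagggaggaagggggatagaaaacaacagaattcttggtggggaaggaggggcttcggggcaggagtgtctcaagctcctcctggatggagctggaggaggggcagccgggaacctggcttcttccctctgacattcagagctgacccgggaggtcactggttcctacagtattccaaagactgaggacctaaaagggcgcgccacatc
Cd200: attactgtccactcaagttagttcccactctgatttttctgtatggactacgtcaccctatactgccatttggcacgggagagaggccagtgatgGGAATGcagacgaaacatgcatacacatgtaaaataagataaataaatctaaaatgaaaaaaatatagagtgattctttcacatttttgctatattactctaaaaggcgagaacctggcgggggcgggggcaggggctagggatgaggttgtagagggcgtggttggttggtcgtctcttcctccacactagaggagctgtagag
The first base of the match lay 241 bases before the start in Upk3b, 196 in Lrrn4 and 155 in Cd200.

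In untreated monolayers the 9 genes spanned levels between 19.5 and 496 scaled TPM. Msln, a glycosylphosphatidylinositol-anchored surface protein, averaged 496 ± 62.0 scaled TPM and Upk1b, a tetraspanin that pairs with uroplakins of the Upk3 family, averaged 476 ± 11.02 scaled TPM (SD, n = 3 each). Libraries of these 2 genes overlapped. Upk3b followed at 276 ± 27.2 scaled TPM, and then Lrrn4, a transmembrane protein with leucine-rich repeats, at 173 ± 25.1, Bnc1, a zinc finger transcription factor, at 157 ± 4.12, and Gpm6a, a membrane glycoprotein of the proteolipid protein family, at 137 ± 8.97 (SD, n = 3 each). Lrrn4 overlapped both Bnc1 and Gpm6a, while Bnc1 and Gpm6a did not overlap each other. Nkain4, a membrane protein that binds the sodium pump, averaged 52.5 ± 5.17, Cd200, an immunoglobulin family ligand, 39.0 ± 3.07, and Muc16, the mucin that carries the CA125 antigen and binds mesothelin, 19.5 ± 0.979 scaled TPM (SD, n = 3 each), with no overlap among these 3. The order changed with culture and treatment. Msln was first in all 4 groups of the experiment, Upk1b ranked 5 in both spheroid groups and 2 in untreated monolayers, and Cd200 ranked 2 in TGFB1 spheroids, 3 in untreated spheroids, 2 in TGFB1 monolayers and 8 in untreated monolayers.

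**Figure D1:**
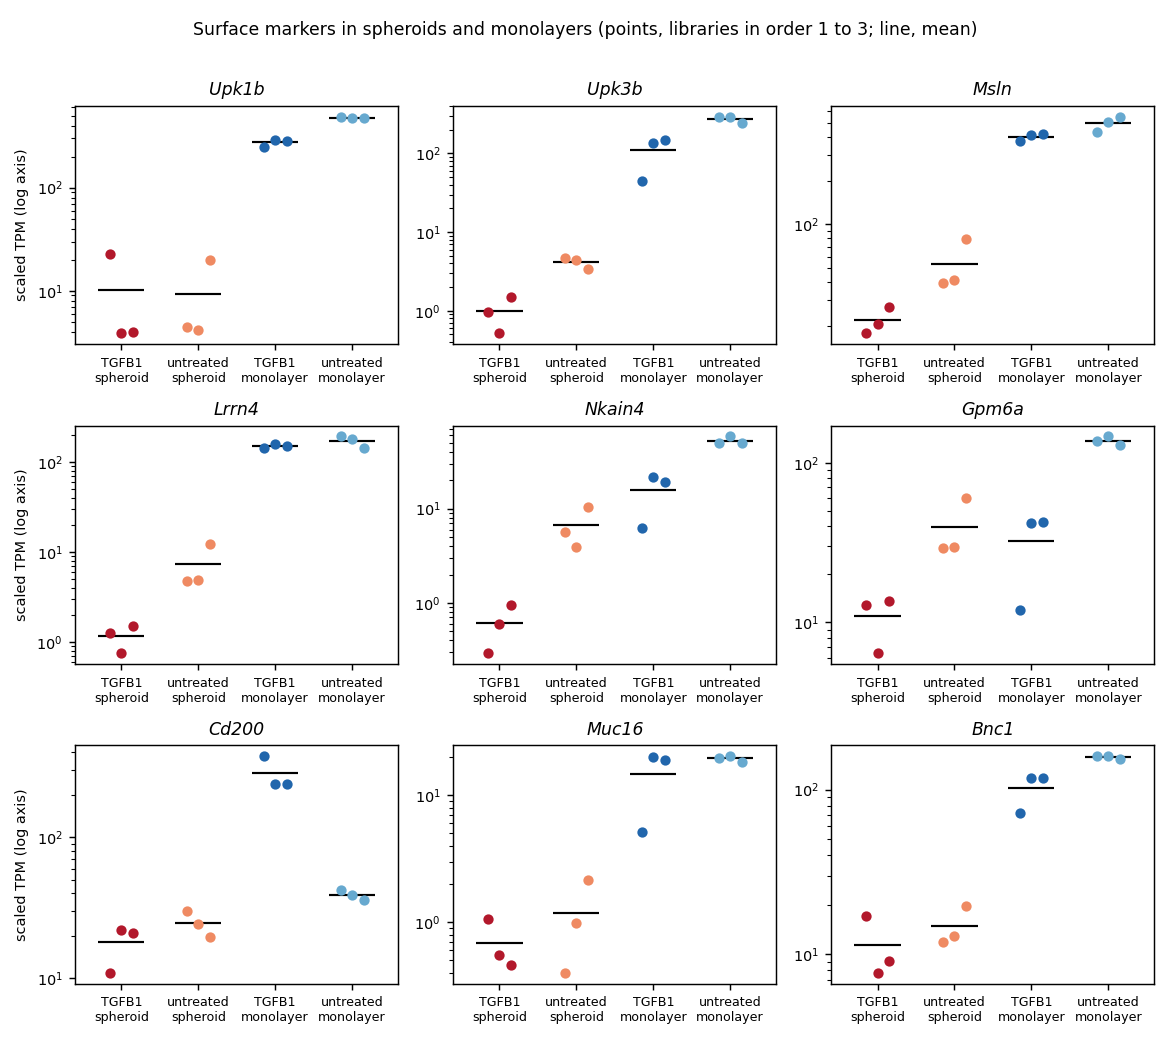
Scaled TPM (log axis) of the 9 genes in TGFB1 spheroids, untreated spheroids, TGFB1 monolayers and untreated monolayers, with 1 point per library and a line at the mean of 3. All spheroid libraries lie below all untreated monolayer libraries in each gene, and Cd200 is the gene whose TGFB1 monolayers lie above untreated monolayers.

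Untreated spheroids were first compared with untreated monolayers, which differ from them in culture form and in library origin. All 9 genes were at lower levels in untreated spheroids, 8 of them past the threshold (adjusted p under 0.05 over 13509 genes tested, limma), where 27.7% of all genes tested were called lower. In all 9 genes every untreated spheroid lay below every untreated monolayer, which held for 32.5% of genes tested. The median log2 difference of the 9 genes was -3.31, against 0.01 over all genes. Differences are on the log2(scaled TPM + 1) scale, which understates the change of genes at low levels.

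Both uroplakins fell most among the 9. Upk1b was at 4.40, 4.12 and 19.7 scaled TPM in untreated spheroids 1, 2 and 3, against 489, 469 and 470 scaled TPM in untreated monolayers, a log2 difference of -5.84 ± 0.61 (SE; adjusted p = 1.76e-05). Upk3b was at 4.64, 4.38 and 3.36 scaled TPM in untreated spheroids, against 290, 294 and 245 scaled TPM in untreated monolayers (log2 difference -5.76 ± 0.37, adjusted p = 6.2e-07). The third untreated spheroid was the highest of its group in Upk1b and the lowest in Upk3b. Without it, the log2 difference of Upk1b was -6.50.

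Mesothelin and its mucin partner also fell. Msln was at 39.7, 41.7 and 78.9 scaled TPM in untreated spheroids, against 429, 509 and 551 scaled TPM in untreated monolayers (log2 difference -3.26 ± 0.23, adjusted p = 1.29e-06). Muc16 was at 0.399, 0.995 and 2.16 scaled TPM in untreated spheroids, against 19.7, 20.3 and 18.4 scaled TPM in untreated monolayers (log2 difference -3.31 ± 0.43, adjusted p = 7.77e-05). Msln stayed the highest of the 9 genes in untreated spheroids and Muc16 was the lowest there.

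Of the other membrane proteins, Lrrn4 fell to 4.74, 4.88 and 12.2 scaled TPM in untreated spheroids, against 193, 180 and 145 scaled TPM in untreated monolayers (log2 difference -4.49 ± 0.28, adjusted p = 4.65e-07). Nkain4 was at 5.65, 3.90 and 10.5 scaled TPM in untreated spheroids, against 49.8, 58.5 and 49.3 scaled TPM in untreated monolayers (log2 difference -2.89 ± 0.41, adjusted p = 0.000153). Gpm6a was at 29.4, 29.6 and 60.0 scaled TPM in untreated spheroids, against 137, 146 and 128 scaled TPM in untreated monolayers (log2 difference -1.84 ± 0.45, adjusted p = 0.00505). The third untreated spheroid was again the one nearest to the monolayers in all 3 genes. Bnc1, the transcription factor of the set, was at 11.8, 12.8 and 19.7 scaled TPM in untreated spheroids, against 159, 160 and 152 scaled TPM in untreated monolayers (log2 difference -3.36 ± 0.28, adjusted p = 3.54e-06). Cd200 was at 30.2, 24.3 and 19.8 scaled TPM in untreated spheroids, against 42.2, 38.7 and 36.1 scaled TPM in untreated monolayers. Its libraries did not overlap, but its log2 difference of -0.65 ± 0.26 missed the threshold (adjusted p = 0.0513). It passed without untreated spheroid 1 (adjusted p = 0.0402) and with both untreated spheroid 3 and TGFB1 spheroid 1 left out (0.0425). It also passed when library quality weights were used (0.00654) and in a fit restricted to the 6 libraries of the comparison (0.0115). In these fits, in that order, 48.1%, 60.9%, 72.2% and 55.7% of all genes tested were called, against 55.2% in the main fit of all 12 libraries.

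In TGFB1 monolayers compared with untreated monolayers, the 9 genes did not move one way. Cd200 rose, Gpm6a, Nkain4 and Upk3b fell, and the other 5 were not called. Among all 13509 genes tested, 9.12% were called higher and 7.79% lower. Cd200 was at 376, 241 and 238 scaled TPM in TGFB1 monolayers, against 42.2, 38.7 and 36.1 scaled TPM in untreated monolayers, which is a ratio of means of 7.30 and a log2 difference of 2.81 ± 0.26 (adjusted p = 0.000123). It was the gene of the 9 whose TGFB1 monolayers all lay above the untreated monolayers, as 25.4% of genes tested did, while 6 of the 9 lay wholly below, as did 22.1% of genes tested.

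Gpm6a was at 12.02, 42.0 and 42.7 scaled TPM in TGFB1 monolayers, against 137, 146 and 128 scaled TPM in untreated monolayers (log2 difference -2.25 ± 0.45, adjusted p = 0.00732). Nkain4 was at 6.24, 21.8 and 19.4 scaled TPM in TGFB1 monolayers, against 49.8, 58.5 and 49.3 scaled TPM in untreated monolayers (log2 difference -1.83 ± 0.41, adjusted p = 0.0123). Upk3b was at 44.6, 137 and 146 scaled TPM in TGFB1 monolayers, against 290, 294 and 245 scaled TPM in untreated monolayers (log2 difference -1.51 ± 0.37, adjusted p = 0.0188). The first TGFB1 monolayer was the lowest library in all 3, and the groups did not overlap. The call of Upk3b was lost without untreated monolayer 1 (adjusted p = 0.0636) or 2 (adjusted p = 0.0647), and when those 2 libraries, traced to 1 earlier sample, were averaged into 1 (adjusted p = 0.0648). It was also lost in a fit of the 6 monolayers alone (adjusted p = 0.0584).

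Upk1b was at 248, 292 and 284 scaled TPM in TGFB1 monolayers, against 489, 469 and 470 scaled TPM in untreated monolayers, and these groups did not overlap. Its log2 difference of -0.80 was not called in the fit of all 12 libraries (adjusted p = 0.421), and it was called in a fit of the 6 monolayers alone (adjusted p = 0.00202), in which 26.5% of all genes tested were called in either direction. Bnc1 (log2 difference -0.64, 95% interval -1.26 to -0.03, adjusted p = 0.145) and Msln (-0.31, interval -0.82 to 0.21, adjusted p = 0.417) also had TGFB1 monolayers below the untreated ones in every library without passing the threshold. Muc16 (-0.58, interval -1.52 to 0.36, adjusted p = 0.399) and Lrrn4 (-0.19, interval -0.80 to 0.42, adjusted p = 0.698) overlapped between the groups.

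**Figure D2:**
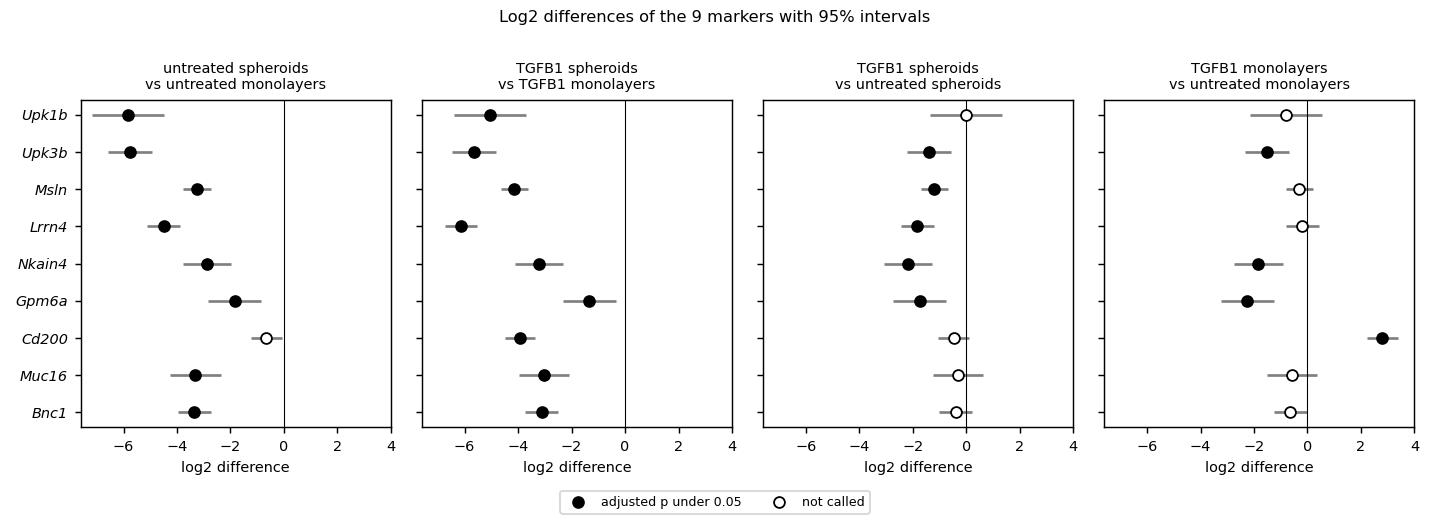
Log2 differences of the 9 genes (horizontal axis) in the 4 comparisons of spheroids, monolayers and TGFB1, each named with its own reference, with lines for 95% intervals. Filled points passed an adjusted p of 0.05, and all 9 points are filled and below 0 for TGFB1 spheroids against TGFB1 monolayers.

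TGFB1 spheroids were then compared with untreated spheroids. Nkain4, Lrrn4, Gpm6a, Upk3b and Msln fell, and Upk1b, Cd200, Muc16 and Bnc1 were not called, where 16.8% of all genes tested were called lower. In the same 5 genes every TGFB1 spheroid lay below every untreated spheroid, as in 20.5% of genes tested, and the other 4 overlapped. The median log2 difference of the 9 was -1.20, against 0.003 over all genes. Mitochondrial transcripts made up 7.24%, 13.9% and 12.1% of the scaled TPM in TGFB1 spheroids 1, 2 and 3, against 8.68%, 7.80% and 8.12% in untreated spheroids, and the part of this difference in the results was not tested.

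Nkain4 was at 0.294, 0.601 and 0.957 scaled TPM in TGFB1 spheroids, against 5.65, 3.90 and 10.5 scaled TPM in untreated spheroids (log2 difference -2.18 ± 0.41, adjusted p = 0.0023). Lrrn4 was at 1.27, 0.752 and 1.49 scaled TPM in TGFB1 spheroids, against 4.74, 4.88 and 12.2 scaled TPM in untreated spheroids (log2 difference -1.83 ± 0.28, adjusted p = 0.000674). Msln was at 17.8, 20.8 and 27.2 scaled TPM in TGFB1 spheroids, against 39.7, 41.7 and 78.9 scaled TPM in untreated spheroids (log2 difference -1.20 ± 0.23, adjusted p = 0.00275). None of these 3 genes overlapped, and Nkain4 and Lrrn4 were close to 1 scaled TPM or below it in TGFB1 spheroids.

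Gpm6a was at 12.9, 6.42 and 13.6 scaled TPM in TGFB1 spheroids, against 29.4, 29.6 and 60.0 scaled TPM in untreated spheroids (log2 difference -1.75 ± 0.45, adjusted p = 0.0122). Upk3b was at 0.974, 0.518 and 1.48 scaled TPM in TGFB1 spheroids, against 4.64, 4.38 and 3.36 scaled TPM in untreated spheroids (log2 difference -1.38 ± 0.37, adjusted p = 0.0142). The second TGFB1 spheroid was the lowest in both genes, and without it neither was called (adjusted p = 0.0556 for Gpm6a and 0.0609 for Upk3b). That library also had the largest column sum of the experiment, and with columns rescaled to equal sums the median of all genes in this comparison moved to -0.16.

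Upk1b did not separate, at 22.6, 3.87 and 3.99 scaled TPM in TGFB1 spheroids and at 4.40, 4.12 and 19.7 scaled TPM in untreated spheroids. Its log2 difference was 0.002, with a 95% interval of -1.34 to 1.35, and with both untreated spheroid 3 and TGFB1 spheroid 1 left out it was -0.09 (adjusted p = 0.409). Cd200 was at 10.96, 22.2 and 21.1 scaled TPM in TGFB1 spheroids and at 30.2, 24.3 and 19.8 scaled TPM in untreated spheroids (log2 difference -0.47, interval -1.04 to 0.10). Muc16 (log2 difference -0.31, interval -1.25 to 0.63) and Bnc1 (-0.40, interval -1.02 to 0.22) were low in both spheroid groups and overlapped. Bnc1 was called only without TGFB1 spheroid 1 (log2 difference -0.72, adjusted p = 0.0404), and Cd200 with equal sums (-0.65, adjusted p = 0.0499).

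With TGFB1 in both arms, all 9 genes fell in TGFB1 spheroids relative to TGFB1 monolayers, where 26.5% of all genes tested were called lower, and 8 of the 9 had no overlap between libraries, as had 30.2% of genes tested in that direction. Lrrn4 had the largest log2 difference of the 9, -6.14 ± 0.28 (adjusted p = 4.26e-08), with 1.27, 0.752 and 1.49 scaled TPM in TGFB1 spheroids, against 142, 158 and 151 scaled TPM in TGFB1 monolayers. Cd200, at 10.96, 22.2 and 21.1 scaled TPM in TGFB1 spheroids, against 376, 241 and 238 scaled TPM in TGFB1 monolayers, differed by -3.93 ± 0.26 (adjusted p = 5.53e-07). Gpm6a had the smallest difference of the 9, -1.34 ± 0.45 (adjusted p = 0.0276), its libraries overlapped, and its call was lost when TGFB1 monolayer 2, TGFB1 monolayer 3 or TGFB1 spheroid 2 was left out (adjusted p between 0.105 and 0.106), in a fit of the 6 libraries compared (adjusted p = 0.0737) and when genes at low levels were kept in (adjusted p = 0.0615). This comparison shares TGFB1 spheroids with the preceding one and TGFB1 monolayers with the monolayer comparison.

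The difference between the TGFB1 effect in spheroids and that in monolayers was tested directly, as an interaction. Cells for spheroids received TGFB1 for 4 days before low attachment, and the duration in monolayers is not given. Culture form, TGFB1 exposure and library origin therefore cannot be told apart in this test. Cd200 differed most, by -3.28 ± 0.37 on the log2 scale (adjusted p = 0.000321): TGFB1 went with a log2 difference of -0.47 in spheroids and of 2.81 in monolayers. Lrrn4 differed by -1.64 ± 0.39 (adjusted p = 0.017), with a TGFB1 difference of -1.83 in spheroids and of -0.19 in monolayers. These 2 of 9 were called lower, against 7.11% of all genes tested, and both were also called in every one of the fits that left out 1 library. Msln was not called, at -0.89 with a 95% interval of -1.62 to -0.16 (adjusted p = 0.0919), and was called with columns rescaled to equal sums (-1.11, adjusted p = 0.0354), which moved the median of all genes to -0.21. For the other 6 genes the intervals covered 0, from the narrowest in Bnc1 (-0.63 to 1.11) to the widest in Upk1b (-1.10 to 2.70). With both untreated spheroid 3 and TGFB1 spheroid 1 left out, Upk1b was called as well, at 0.70 ± 0.11 (adjusted p = 0.00261), with a TGFB1 difference of -0.09 in spheroids and of -0.80 in monolayers.

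Close relatives of the 9 genes were counted separately. Of 20 paralogs and binding partners, 11 passed the filter, and in untreated spheroids relative to untreated monolayers 4 of these rose and none fell, where 27.6% of all genes tested were called higher. However, 7 of the 11 were under 1 scaled TPM in every untreated monolayer and passed the filter through other groups, which partly fixes the direction of the count. Cd200r3 (2.00 ± 0.41, adjusted p = 0.00176) and Gpm6b (0.84 ± 0.25, adjusted p = 0.0156) were of that kind, while Nkain1 (1.33 ± 0.36, adjusted p = 0.00847) and Nkain2 (1.14 ± 0.21, adjusted p = 0.000858) were above 1 scaled TPM in untreated monolayers. In TGFB1 spheroids relative to untreated spheroids, 3 rose and 2 fell, where 18.8% of all genes tested were called higher and 16.8% lower. Gpm6b, a relative of Gpm6a in the proteolipid family, rose by 2.72 ± 0.25 (adjusted p = 3.2e-05) and Nkain1 by 1.48 ± 0.36 (adjusted p = 0.00855). Lrrn2 rose by 2.14 ± 0.53 (adjusted p = 0.00939). It passed the filter through TGFB1 spheroids, at 5.64 ± 6.92 scaled TPM there (SD, n = 3), and was under 1 scaled TPM in every untreated spheroid. Nkain2 (-1.21 ± 0.21, adjusted p = 0.00147) and Bnc2 (-0.84 ± 0.27, adjusted p = 0.0317) fell. Gpm6a, Lrrn4 and Nkain4 also fell in this comparison, and Bnc1 was not called. In TGFB1 monolayers relative to untreated monolayers Nkain3 alone was called, at 0.81 ± 0.25 (adjusted p = 0.0492), where 9.12% of all genes tested were called higher. Between TGFB1 spheroids and TGFB1 monolayers 4 rose and 1 fell, where 25.3% of all genes tested were called higher and 26.5% lower. Of the 11, 5 were under 1 scaled TPM in every TGFB1 monolayer. In the interaction 1 was higher and 1 lower, where 8.72% of all genes tested were called higher and 7.11% lower.

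Of 30 other genes of mesothelium and ovarian surface, 22 passed the filter. In untreated spheroids relative to untreated monolayers, 11 fell, 3 rose and 8 were not called, with a median log2 difference of -0.51. Of all genes tested, 27.7% were called lower and 27.6% higher in this comparison. Of the 22, 2 were under 1 scaled TPM in every untreated spheroid and 1 in every untreated monolayer. The simple epithelial keratin Krt7 fell furthest, at 2.69 ± 0.74 scaled TPM in untreated spheroids and 329 ± 37.8 scaled TPM in untreated monolayers (SD, n = 3 each; log2 difference -6.50 ± 0.21, adjusted p = 1.3e-08). Rspo1, a secreted activator of Wnt signalling, fell by 4.43 (SE 0.43, adjusted p = 1.09e-05), Ezr, the microvillus linker ezrin, fell by 1.91 (SE 0.21, adjusted p = 2.8e-05), and Wt1 fell by 1.17 (SE 0.17, adjusted p = 0.000152). Igfbp5, an insulin-like growth factor binding protein, rose by 5.94 ± 0.62 (adjusted p = 1.68e-05).

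With TGFB1 in monolayers, 8 of the 22 fell and none rose, where 7.79% of all genes tested were called lower and 9.12% higher. Among those that fell were the protease inhibitor Slpi (-3.31 ± 0.43, adjusted p = 0.000814) and the complement component C3 (-2.68 ± 0.55, adjusted p = 0.00802). In TGFB1 spheroids relative to untreated spheroids 8 fell and 3 rose, where 16.8% of all genes tested were called lower and 18.8% higher. The water channel Aqp1 (6.46 ± 0.54, adjusted p = 1.45e-05) and Slpi (2.96 ± 0.43, adjusted p = 0.000583) rose furthest. The retinal dehydrogenase Aldh1a1 (-3.32 ± 0.62, adjusted p = 0.00217) fell furthest. Of the 22, 2 were under 1 scaled TPM in every untreated spheroid, Aqp1 among them, and 3 in every TGFB1 spheroid. This partly fixes the direction of Aqp1, which passed the filter through other groups. Aqp1 and Slpi moved opposite to Msln and Upk3b in that comparison. Between TGFB1 spheroids and TGFB1 monolayers 7 rose and 8 fell, where 25.3% of all genes tested were called higher and 26.5% lower. Of the 22, 4 were under 1 scaled TPM in every TGFB1 monolayer, 3 of them among those that rose. Another 3 were under 1 scaled TPM in every TGFB1 spheroid, 1 of them among those that fell. In the interaction 5 were higher and 2 lower, where 8.72% of all genes tested were called higher and 7.11% lower.

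Markers of other cell types also differed between spheroids and monolayers, and their part in these results was not tested. Of 8 granulosa and theca markers, 4 passed the filter. Star, Inha and Foxl2 rose in untreated spheroids (log2 differences 2.43 ± 0.32, 1.19 ± 0.27 and 0.48 ± 0.11, adjusted p = 1e-04, 0.00313 and 0.00307), and so did Cyp11a1 (6.19 ± 0.96, adjusted p = 0.000289), which was under 1 scaled TPM in every untreated monolayer and passed only through spheroids. The summed level of that list was between 1495 and 2360 scaled TPM in untreated spheroids and between 309 and 351 in untreated monolayers, and 1 of its 8 markers was at 0 in both groups. Most of that sum was Star, at 1277 to 2259 scaled TPM in untreated spheroids and 274 to 318 in untreated monolayers. Oviductal epithelium markers summed to 8.15 to 24.8 scaled TPM in untreated spheroids and 2.52 to 4.19 in untreated monolayers, with 3 of 4 tested rising, 3 of those tested under 1 scaled TPM in every untreated monolayer, and 3 of 8 at 0 in each group. Fibroblast and smooth muscle markers summed to 362 to 544 scaled TPM in untreated spheroids and 2694 to 3188 in untreated monolayers, with 3 of 6 tested falling. Leukocyte markers summed to 16.3 to 77.1 scaled TPM in untreated spheroids, nearly all of it Cd52, and 0.955 to 1.39 in untreated monolayers. Endothelial markers summed to 3.79 to 10.1 scaled TPM in untreated spheroids and 3.46 to 4.31 in untreated monolayers, with 1 of 3 tested rising. Urothelium markers, among them the other uroplakins Upk1a, Upk2 and Upk3a, summed to at most 3.00 scaled TPM in any library of the experiment. Upk1a, the 1 of the 8 that passed the filter, was not called, and the other 7 were not tested.

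In TGFB1 spheroids the granulosa and theca sum was between 429 and 771 scaled TPM, against 1495 to 2360 in untreated spheroids, and 3 of 4 tested markers fell. Star alone was at 388 to 687 scaled TPM in these TGFB1 spheroids. Endothelial markers summed to 29.1 to 54.5 scaled TPM in TGFB1 spheroids and 3.79 to 10.1 in untreated spheroids. Of the 3 tested, Cdh5 rose (log2 difference 3.76 ± 0.34, adjusted p = 2.36e-05) and 2 were not called. Fibroblast and smooth muscle markers summed to 630 to 1454 scaled TPM in TGFB1 spheroids and 362 to 544 in untreated spheroids, with 4 of 6 tested rising, 2 of them under 1 scaled TPM in every untreated spheroid. In TGFB1 monolayers the granulosa and theca sum was between 109 and 211 scaled TPM, against 309 to 351 in untreated monolayers. Star alone was at 77.5 to 178 scaled TPM in these TGFB1 monolayers. Col1a1 rose in them (log2 difference 4.34 ± 0.18, adjusted p = 7.82e-07) while Dcn fell (-1.14 ± 0.28, adjusted p = 0.02).

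The 9 genes were also set beside every other tested gene by the root mean square difference of their log2 profiles, each centred on its own mean, over the 12 libraries of the experiment. Among the 9 themselves, Muc16 and Bnc1 were the closest pair (0.30), followed by Msln and Bnc1 (0.53), whereas Cd200 and Upk3b were the most distant (2.39). Outside the set, the nearest gene was Krt7 for Upk3b (0.58), Atoh8 for Upk1b (0.66), Crb2 for Lrrn4 (0.61), Gm8113 for Msln (0.28), Tgtp1 for Nkain4 (0.48), Gbp2 for Gpm6a (0.28), Nuak1 for Cd200 (0.26), and Epb41l3 for both Muc16 (0.34) and Bnc1 (0.33). Genes at low levels span less of this scale, so a small distance among them means less than the same distance for Upk1b or Upk3b, whose own spread about their means was 2.83 and 2.97.

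Snail libraries were compared with libraries of the empty vector WPI, both from monolayers. Msln fell and Upk3b rose among the 9 genes, and the other 7 were not called. Of 12240 genes tested, 1.14% were called lower and 0.572% higher. Msln was at 299, 314 and 306 scaled TPM in Snail libraries, against 529, 457 and 497 scaled TPM in WPI libraries (log2 difference -0.68 ± 0.06, adjusted p = 0.00659), and it was called in all 6 fits that left out 1 library. Upk3b was at 510, 505 and 411 scaled TPM in Snail libraries, against 308, 274 and 352 scaled TPM in WPI libraries (log2 difference 0.61 ± 0.11, adjusted p = 0.0456). Neither gene overlapped between the groups.

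The call of Upk3b lay close to the threshold. It was lost without Snail 1 (adjusted p = 0.141), Snail 2 (adjusted p = 0.171), WPI 1 (adjusted p = 0.146), WPI 2 (adjusted p = 0.111) or WPI 3 (adjusted p = 0.0667), with log2 differences between 0.52 and 0.70 in these fits.

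Muc16 was at 41.4, 35.9 and 32.1 scaled TPM in Snail libraries, against 27.1, 14.8 and 25.9 scaled TPM in WPI libraries (log2 difference 0.71 ± 0.21, adjusted p = 0.176). Cd200 was at 53.8, 50.6 and 46.4 scaled TPM in Snail libraries, against 57.3, 66.9 and 66.2 scaled TPM in WPI libraries (log2 difference -0.33 ± 0.08, adjusted p = 0.112). Both separated without overlap and neither was called. In all, 2 of the 9 genes lay wholly above the WPI libraries and 2 wholly below, where 9.7% and 10.9% of genes tested did. Upk1b (interval -0.18 to 0.08), Lrrn4 (-0.46 to 0.21), Nkain4 (-0.52 to 0.13), Gpm6a (-0.06 to 0.60) and Bnc1 (-0.23 to 0.26) overlapped, with 95% intervals of the log2 difference that covered 0. The median log2 difference of the 9 genes was -0.05, against 0.01 over all genes. In the same libraries, 3 of 21 tested other genes of mesothelium and ovarian surface fell and none rose, where 1.14% of all genes tested were called lower. Those that fell were Ildr2 (-0.54 ± 0.06, adjusted p = 0.00719), Krt18 (-0.57 ± 0.09, adjusted p = 0.034) and the mucin-type glycoprotein Pdpn (-0.41 ± 0.05, adjusted p = 0.0102). None of 5 tested paralogs and binding partners was called. Of the cell type lists, the endothelial marker Egfl7 alone was called (1.16 ± 0.13, adjusted p = 0.0102).

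**Figure D3:**
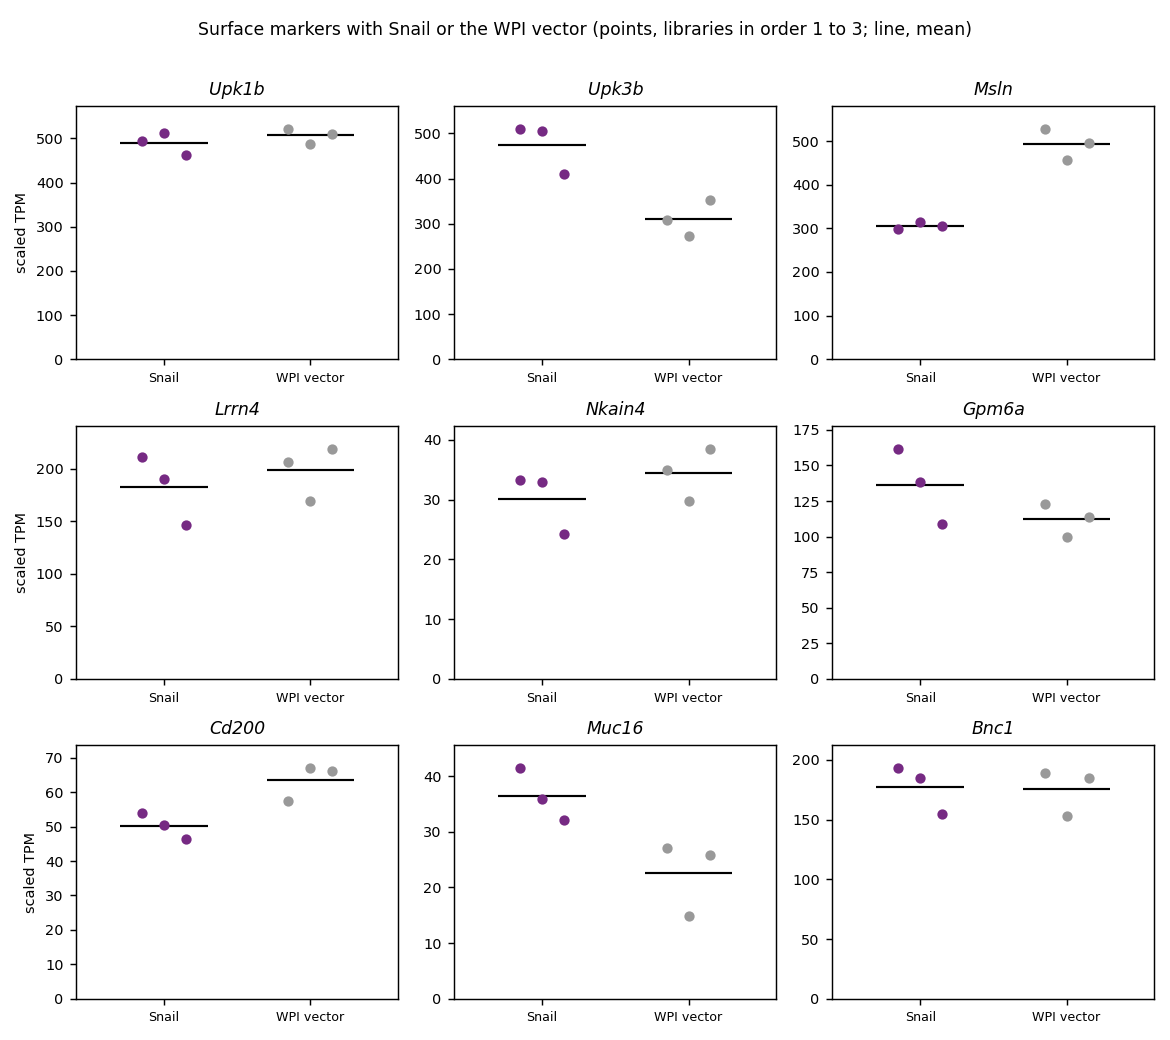
Scaled TPM (linear axis from 0) of the 9 genes in Snail and WPI vector libraries, with 1 point per library and a line at the mean of 3. Snail libraries lie wholly below WPI libraries in Msln and Cd200 and wholly above them in Upk3b and Muc16.

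In the BRCA1 experiment, Msln and Bnc1 were called higher in Cre libraries and the other 7 genes overlapped between Cre and GFP libraries. Of 12775 genes tested, 9.04% were called higher, and 26.6% had every Cre library above every GFP library. Bnc1 was at 124, 96.4 and 143 scaled TPM in Cre libraries, against 32.6, 73.2 and 20.6 scaled TPM in GFP libraries (log2 difference 1.68 ± 0.45, adjusted p = 0.049). Msln was at 233, 140 and 266 scaled TPM in Cre libraries, against 66.5, 58.0 and 120 scaled TPM in GFP libraries (log2 difference 1.39 ± 0.37, adjusted p = 0.0486). The median log2 difference of all genes was 0.17, and relative to it Bnc1 differed by 1.51 and Msln by 1.22. Mitochondrial transcripts made up 11.1%, 10.5% and 12.7% of the scaled TPM in Cre libraries, against 6.83%, 8.75% and 15.3% in GFP libraries, and their part in the results was not tested.

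Both calls sat at the threshold. The call of Bnc1 was lost without GFP 1 (adjusted p = 0.188), GFP 3 (adjusted p = 0.106), Cre 1 (adjusted p = 0.168), Cre 2 (adjusted p = 0.102) or Cre 3 (adjusted p = 0.164), and the call of Msln without GFP 1 (adjusted p = 0.194), Cre 1 (adjusted p = 0.178), Cre 2 (adjusted p = 0.0658) or Cre 3 (adjusted p = 0.167). The log2 difference stayed between 1.27 and 2.17 for Bnc1 and between 1.19 and 1.71 for Msln over the 6 fits that left out 1 library.

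**Figure D4:**
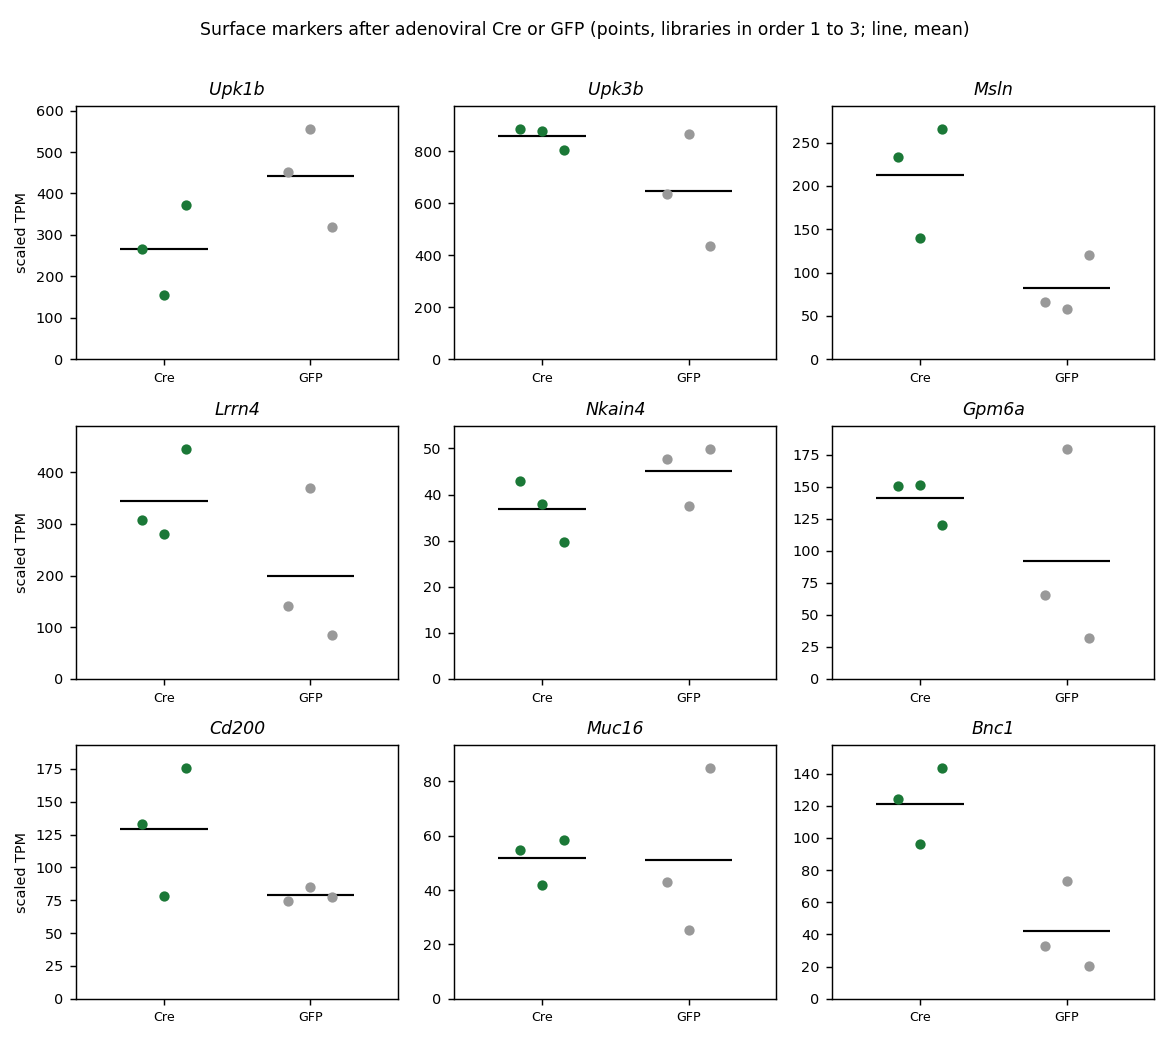
Scaled TPM (linear axis from 0) of the 9 genes in Cre and GFP libraries of the BRCA1 experiment, with 1 point per library and a line at the mean of 3. Cre libraries lie wholly above GFP libraries in Msln and Bnc1. GFP 2 is the highest GFP library in Lrrn4, Gpm6a, Upk3b, Upk1b, Bnc1 and Cd200 and the lowest in Msln, Muc16 and Nkain4.

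The second GFP library decided several genes. Lrrn4 was at 308, 280 and 446 scaled TPM in Cre libraries, against 141, 368 and 85.2 scaled TPM in GFP libraries. Gpm6a was at 151, 152 and 120 scaled TPM in Cre libraries, against 65.2, 180 and 31.7 scaled TPM in GFP libraries. Upk3b was at 888, 880 and 806 scaled TPM in Cre libraries, against 635, 869 and 437 scaled TPM in GFP libraries. In all 3 genes GFP 2 lay within or above the Cre libraries and the other GFP libraries lay below all of them. With GFP 2 left out, calls rose across the table, to 39.9% of all genes called higher in Cre libraries and 26.0% called lower, and 5 of the 9 genes were called, all higher, a share to be read against that background: Lrrn4 (log2 difference 1.61, adjusted p = 0.00249), Gpm6a (1.60, adjusted p = 0.00309), Upk3b (0.70, adjusted p = 0.026), Msln (1.19, adjusted p = 0.0197) and Bnc1 (2.17, adjusted p = 0.000499).

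Upk1b was at 267, 156 and 372 scaled TPM in Cre libraries, against 453, 556 and 320 scaled TPM in GFP libraries (log2 difference -0.79 ± 0.39, adjusted p = 0.16). Cd200 was at 133, 78.0 and 175 scaled TPM in Cre libraries, against 74.5, 85.3 and 77.2 scaled TPM in GFP libraries (log2 difference 0.63 ± 0.32, adjusted p = 0.169). These groups overlapped, through Cre 3 in Upk1b and Cre 2 in Cd200. Muc16 was at 54.9, 42.0 and 58.2 scaled TPM in Cre libraries and at 42.9, 25.4 and 84.8 scaled TPM in GFP libraries. Nkain4 was at 42.9, 37.9 and 29.6 scaled TPM in Cre libraries and at 47.8, 37.6 and 49.98 scaled TPM in GFP libraries. The sign of both depended on the scaling, with a log2 difference of 0.17 for Muc16 as deposited and of -0.03 with median of ratios scaling, and of -0.29 for Nkain4 as deposited and of 0.24 with equal sums.

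**Figure D5:**
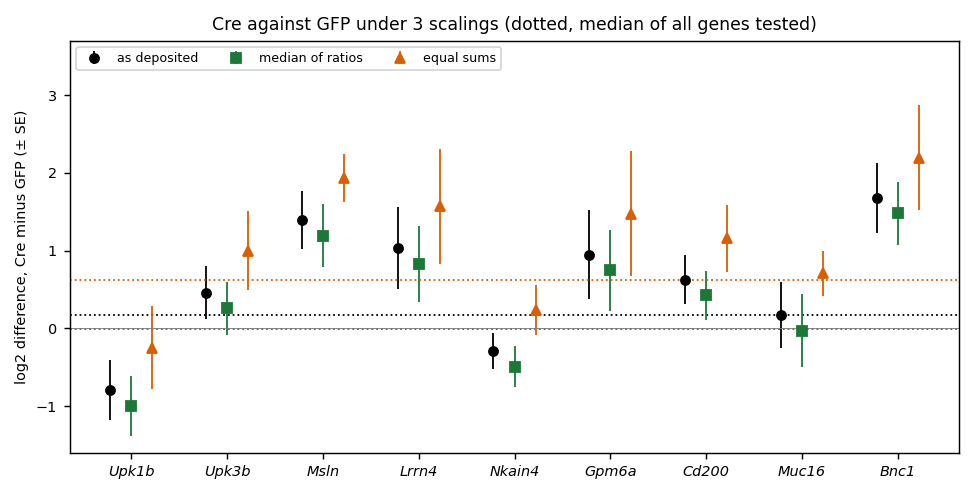
Log2 difference (Cre minus GFP, ± SE) of the 9 genes in the BRCA1 experiment with columns as deposited, rescaled by median of ratios and rescaled to equal sums, with dotted lines at the median of all genes tested under each. Bnc1 and Msln are the 2 highest under each scaling, and the median of all genes is 0.17 as deposited and 0.63 with equal sums.

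Of 26 tested other genes of mesothelium and ovarian surface, 3 rose and 6 fell in Cre libraries, with a median log2 difference of 0.30. Of all genes tested, 9.04% were called higher and 5.27% lower. Igfbp5 (6.50 ± 0.35, adjusted p = 0.000526), the retinoic acid enzyme Aldh1a2 (1.28 ± 0.27, adjusted p = 0.0296) and Gata4 (0.99 ± 0.26, adjusted p = 0.0468) rose. Igfbp6 (-2.25 ± 0.42, adjusted p = 0.0198), Slpi (-1.82 ± 0.38, adjusted p = 0.0278), Krt18 (-1.79 ± 0.42, adjusted p = 0.0375), Krt8 (-1.44 ± 0.36, adjusted p = 0.0436), Aldh1a1 (-1.27 ± 0.27, adjusted p = 0.0297) and Bcam (-1.05 ± 0.19, adjusted p = 0.0179) fell. Of 6 tested paralogs and binding partners, Bnc2, the paralog of Bnc1, rose (1.45 ± 0.35, adjusted p = 0.0412) and Lgals3 fell (-1.90 ± 0.31, adjusted p = 0.0121). Granulosa and theca markers summed to 257 to 357 scaled TPM in Cre libraries and 92.5 to 122 in GFP libraries, with 2 of 3 tested rising. Oviductal epithelium markers summed to 102 to 115 in Cre and 174 to 310 in GFP libraries, with 1 of 3 tested rising and 1 falling. Fibroblast and smooth muscle markers summed to 900 to 1266 in Cre and 1566 to 1746 in GFP libraries. Of the 5 tested, Acta2 fell (-6.10 ± 0.36, adjusted p = 0.000594), 1 rose and 3 were not called, with a median log2 difference of 0.40. The 1 that rose was under 1 scaled TPM in every GFP library. The part of these markers in the results was not tested.

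In the authors' deposited table of the Snail comparison, q-values under 0.05 were given for Msln, Upk3b (q = 0.00132) and Cd200 (q = 0.0468) among the 9 genes, and all 9 had the sign found here. In the authors' deposited table of the BRCA1 comparison, Bnc1 (q = 0.0158) and Upk1b (q = 0.0338, log2 difference -1.13) were under 0.05 and Msln was not (q = 0.101), and 8 of the 9 signs were those found here, the exception being Muc16. In the authors' deposited table of the first experiment, the coefficients of the 9 genes had the sign found here for untreated spheroids in 9 of 9, for TGFB1 in monolayers in 9 of 9 and for the interaction in 8 of 9, the exception being Upk3b.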

How the data were processed

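Poly(A) RNA-seq of 24 libraries in 8 groups was deposited as 3 tables. The authors quantified transcripts with kallisto 0.44.0 and modelled them with sleuth 0.30.0 on GRCm38, per the submitters' processing notes. The deposited expression signal is scaled TPM per gene, whose column sums differ, so counts and depth are unknown. The deposited tables of comparisons give p-values and q-values and coefficients in natural log, converted here to log2. In the table of the first experiment a q-value covers all 3 terms of the model at once.

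Genes at 1 or more scaled TPM in 3 or more libraries of a table were tested (13509, 12240 and 12775 genes) on log2(scaled TPM + 1) with limma 3.58.1 (R 4.3.3, lmFit and eBayes with trend, two-sided). Benjamini-Hochberg adjustment ran over all genes tested, and a call is an adjusted p under 0.05. The 12 libraries of the first experiment shared 1 fit, and the Snail and BRCA1 tables of 6 libraries were fitted alone. The method was tested on simulated data. No column was left unmapped to a sample.

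All 9 genes are named in every comparison. Of the lists of other genes of mesothelium and ovarian surface (30), paralogs and binding partners (20) and markers of 6 other cell types (8 each), counts are given for every list, with the genes that moved furthest. 1 planned gene of the paralog list is not reported here and is left out of its counts. The members and lists were chosen with earlier results of these data known. A second row of Pdpn in each table, and of Itgam in 2 tables, was left out. Same-numbered libraries were checked for pairing by the correlation of their deviations from group means. It was -0.320 to 0.186 in the first experiment, -0.078 to 0.331 with Snail and -0.167 to -0.053 with BRCA1. These values cannot show whether libraries were paired, and no block was used in the main fits. Coordinates are from GENCODE M21 and promoter sequences from RefSeq. Alternatives were another pseudocount (0.1), no filter, 2 rescalings, library quality weights, a replicate block, smaller fits and leaving out libraries.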

Additional observations from a re-analysis of the deposited data

Results flagged for a closer look

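The TGFB1 effect on Cd200 differed between the spheroid and monolayer libraries, by -3.28 on the log2 scale for spheroids minus monolayers. TGFB1 exposure may also have differed between these arms, since its duration in monolayers is not given. Cd200 averaged 18.1 ± 6.19 scaled TPM in TGFB1 spheroids and 24.7 ± 5.23 in untreated spheroids, and 285 ± 79.0 in TGFB1 monolayers and 39.0 ± 3.07 in untreated monolayers (SD, n = 3 each). The difference was called in limma's interaction test (adjusted p = 0.000321), and lay between -3.45 and -2.97 when each of the 12 libraries was left out.

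The TGFB1 effect on Lrrn4 differed as well, by -1.64 on the log2 scale (adjusted p = 0.017). Lrrn4 averaged 1.17 ± 0.38 scaled TPM in TGFB1 spheroids and 7.29 ± 4.29 in untreated spheroids, and 150.2 ± 7.99 in TGFB1 monolayers and 173 ± 25.1 in untreated monolayers (SD, n = 3 each). It lay between -1.85 and -1.24 when each library was left out, with adjusted p up to 0.0479.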

How the results depend on the processing

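Of 918 values of single genes under alternative settings, 863 kept their direction and their side of the threshold, 39 lost a call, 16 gained one and none that was called changed sign. Of the 7 counts of called genes, those for untreated spheroids against untreated monolayers (8 to 9 when 1 library was left out), for TGFB1 spheroids against TGFB1 monolayers (8 to 9) and for the interaction (2) stayed within 1.5 times under every setting run. For TGFB1 monolayers, library quality weights gave 7 called genes against 4, in a fit that called 47.6% of all genes tested, and leaving out 1 library gave 3 to 4. For TGFB1 spheroids against untreated spheroids, leaving out 1 library gave 3 to 6 against 5, with 3 without TGFB1 spheroid 2, where 24.4% of all genes were called. For Snail, the count of 2 became 1 with median of ratios scaling, with equal sums and with no filter, and 1 to 2 when 1 library was left out. For the BRCA1 comparison, the count of 2 became 0 with median of ratios scaling, with no filter and with a pseudocount of 0.1, 1 with equal sums, and 0 to 5 when 1 library was left out, with 5 without GFP 2, where 8420 of 12775 genes (65.9%) were called, against 1828 with all 6 libraries. The causes were not tested.

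Same-number pairs seldom had correlated deviations (r over 0.1 in 2 of 18 in the first experiment, 1 of 3 with Snail and 0 of 3 with BRCA1). The Snail pair over 0.1, Snail 1 with WPI 1, had an r of 0.331. With 3 libraries per group, such correlations cannot show whether the samples were paired. With replicate number as a block, the count was 0 in the Snail and 0 in the BRCA1 comparison, where Msln with Snail had an adjusted p of 0.0534, and Msln was called in the interaction (adjusted p = 0.0311).

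With both untreated spheroid 3 and TGFB1 spheroid 1 left out, a setting chosen after seeing the data, the counts were 9, 5, 9 and 3 in untreated spheroids against untreated monolayers, TGFB1 spheroids against untreated spheroids, TGFB1 spheroids against TGFB1 monolayers and the interaction, where 60.9%, 39.3%, 56.9% and 25.1% of all genes were called. A pseudocount of 0.1 widened differences of genes at low levels, to -3.24 for Nkain4 and -2.04 for Upk3b in TGFB1 spheroids against untreated spheroids and to -4.19 for Muc16 in untreated spheroids against untreated monolayers. Library quality weights could not be fitted for the BRCA1 table, where the estimate did not converge. Low levels near 1 scaled TPM limit what can be said of Muc16, Nkain4, Upk3b and Lrrn4 in TGFB1 spheroids, the interaction of Lrrn4 included, since the number of reads behind them is unknown.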
